A study of Mus musculus with 6 samples.

Results

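Overexpression of SRF in neonatal mouse cardiomyocytes (CMs) was accompanied by a small group of 13 genes whose RNA was halved or lower. They were chosen by their measured values in 4 libraries: at least 5 CPM (reads on a gene over all reads counted in its library, times 1000000) in both GFP replicates 2 and 3, and a larger SRF-OE value of at most 0.5 times the smaller of those GFP values. Of the 23337 genes in the count table, 9327 had at least 5 CPM in both GFP libraries, and 13 of these (0.139%) met the limit. The rule in the other direction, at least 5 CPM in both SRF-OE libraries and a smaller SRF-OE value of at least 2 times the larger GFP value, was met by 372 of 9880 genes (3.77%). These counts depend on the scaling. With the TMM factors of edgeR 39 genes met the rule and 229 its reverse, and with DESeq2's size factors 42 and 222. Without SRF-OE replicate 2, 210 genes met the rule, without GFP replicate 2 34 and without GFP replicate 3 21. Since the values themselves chose the 13 genes, their difference between the groups is a description and was given no test. Acta2 and Hcn4 were left out by the rule, and their ratios, 0.601 and 0.557, lay outside its limit in any case.

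Wildtype pups received the vector under the skin at postnatal day 1 (P1), at 5e8 viral genomes per gram of body weight, and CMs were collected at postnatal day 14 (P14). SRF-OE hearts received AAV9-cTNT-SRF-2A-GFP and GFP hearts AAV9-cTNT-GFP, so that both groups carried a virus and made GFP. The cardiac troponin T promoter (cTNT) of the vector drives expression in CMs, the dose transduces only part of them, and GFP+ cells were sorted before RNA was extracted for RNA-seq. The labels give 3 libraries a group and the series describes them as biological replicates, but the table holds counts for 5 libraries: the column named for SRF-OE replicate 1 holds gene lengths. The first column, headed as chromosome, holds gene symbols, so the header does not match the contents of its leading columns. Whether the names of the 5 count columns are displaced too cannot be told from the table, and in that case the replicate numbers, and for the column named GFP1 the group, would differ from those used here. Replicate numbers and groups below are those of the header.

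Total counts ran from 14137433 to 23159631 a library. Srf itself had 391 and 803 CPM in SRF-OE replicates 2 and 3 and 63.3 and 76.3 CPM in GFP replicates 2 and 3. The library labelled GFP1 had 342 CPM of Srf, which goes against its label, so it stood outside the rule. Its values are given separately for the members and for part of the other genes. Elsewhere, GFP values are those of replicates 2 and 3 alone. The 10 CM identity genes checked, Ttn, Myh6 and Atp2a2 among them, summed to between 96171 and 130288 CPM, so that CM transcripts were abundant in all 5 libraries. Xist and the Y-linked genes marked both libraries numbered 2 as female and the other 3 as male.

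SRF is a transcription factor of the MADS-box family that binds a short AT-rich element, the CArG box, and controls genes of the contractile apparatus and of the actin cytoskeleton together with cofactors of the myocardin and ternary complex factor families. In CMs it is needed for sarcomere gene expression. None of the 13 genes is a sarcomere gene. By textbook role the 12 described below include surface proteins of adhesion and guidance (Cntn2, Rtn4r, Lingo3, Cadm4) and a secreted guidance cue (Slit2). The others are a peptidase of the cell surface (Mme), enzymes (Ogdhl, Camk2b, Tmtc1), regulators of signalling (Arhgef19, Sh3rf2) and a long non-coding RNA (Gm16119). This grouping was made once the members were known.

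The stretch before the start of transcription was read for the members from RefSeq, build GRCm38.p6, and 11 of the 13 had such a window, 15 windows in all. Shown here are the 250 bases upstream of 4 protein-coding members whose window ends where the annotated gene begins. Each is printed 5′ to 3′ on the strand of its gene, and capitals mark the GC box, GGGCGG on either strand, an element bound by Sp-family factors. Rtn4r is at chr16:18127392-18127641 (plus strand), Ogdhl at chr14:32321769-32322018 (plus), Cadm4 at chr7:24481773-24482022 (plus) and Lingo3 at chr10:80844040-80844289 (minus).
Rtn4r: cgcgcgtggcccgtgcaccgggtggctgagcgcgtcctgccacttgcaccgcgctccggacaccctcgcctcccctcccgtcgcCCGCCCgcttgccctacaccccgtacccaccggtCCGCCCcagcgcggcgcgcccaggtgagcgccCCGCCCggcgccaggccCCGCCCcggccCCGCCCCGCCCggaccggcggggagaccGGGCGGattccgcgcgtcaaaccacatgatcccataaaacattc
Ogdhl: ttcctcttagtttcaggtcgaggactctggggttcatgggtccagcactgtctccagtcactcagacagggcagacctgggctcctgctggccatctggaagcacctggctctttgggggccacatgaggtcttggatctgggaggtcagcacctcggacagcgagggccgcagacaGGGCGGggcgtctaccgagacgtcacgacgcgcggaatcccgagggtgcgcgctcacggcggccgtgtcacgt
Cadm4: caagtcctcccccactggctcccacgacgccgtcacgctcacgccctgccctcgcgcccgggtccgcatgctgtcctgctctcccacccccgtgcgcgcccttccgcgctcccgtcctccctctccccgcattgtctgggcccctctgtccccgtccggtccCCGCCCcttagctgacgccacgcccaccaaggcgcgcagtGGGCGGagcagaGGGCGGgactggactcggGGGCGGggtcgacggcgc
Lingo3: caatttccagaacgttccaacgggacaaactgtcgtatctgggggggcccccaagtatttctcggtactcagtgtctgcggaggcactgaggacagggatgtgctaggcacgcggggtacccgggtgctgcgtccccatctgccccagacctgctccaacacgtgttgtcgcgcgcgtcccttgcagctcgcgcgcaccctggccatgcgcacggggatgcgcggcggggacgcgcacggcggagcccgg

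These 4 stretches hold 7, 1, 4 and 0 GC boxes in that order, and those of Rtn4r are crowded enough for neighbouring boxes to share bases. Lingo3 has another, overlapping window further into the gene, not shown, which does hold a GC box. A window of the non-coding Gm16119 also ends where its gene begins. It is not shown and holds 0 GC boxes, at 48.8% GC. Across the members, 11 of 15 windows, from 9 genes, held at least 1 GC box, against 32.7% of all 32851 windows. The base composition differed in the same direction, with a median GC content of 69.6% in the member windows and 52.4% in all windows. The CArG box was found in 0 of the 15 windows and in 1.47% of all windows, and the MEF2 motif, the element of another MADS-box family of muscle, in 0 and in 2.92%. Both strands were searched for every motif. The set of all windows was not limited to genes with enough CPM to enter the rule, as the members were. Shares and GC content were not computed for windows of those genes, so the members have no matched background here. Windows were counted singly, although Mme, Lingo3 and Gm16119 each gave more than 1. The differences in GC boxes and GC content were not tested, and no trait of the members is read from them. A match is only a run of letters, and the lack of a match says only that these letters are not in this window.

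By their median, the members were neither the most abundant genes nor at the floor. Gm16119 (5.92 and 6.72 CPM in GFP replicates 2 and 3) and Cadm4 (6.17 and 6.65 CPM) lay just above the floor of 5 CPM. Their median level in the mean of GFP replicates 2 and 3 was 20.9 CPM, against 32.1 CPM for all genes that could enter, and the highest member lay at percentile 75.5 of these. Read counts behind single values ran from 32 to 1619. The mean of the GFP pair over the mean of the SRF-OE pair ranged from 2.10-fold to 4.39-fold, with a median of 2.99-fold. Summed over the 13 genes, the libraries held 129 and 99.4 CPM in SRF-OE replicates 2 and 3, 163 CPM in the library labelled GFP1, and 309 and 341 CPM in GFP replicates 2 and 3. In RNA of pooled cells, fewer cells of a type and less RNA per cell cannot be told apart.

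**Figure D1:**
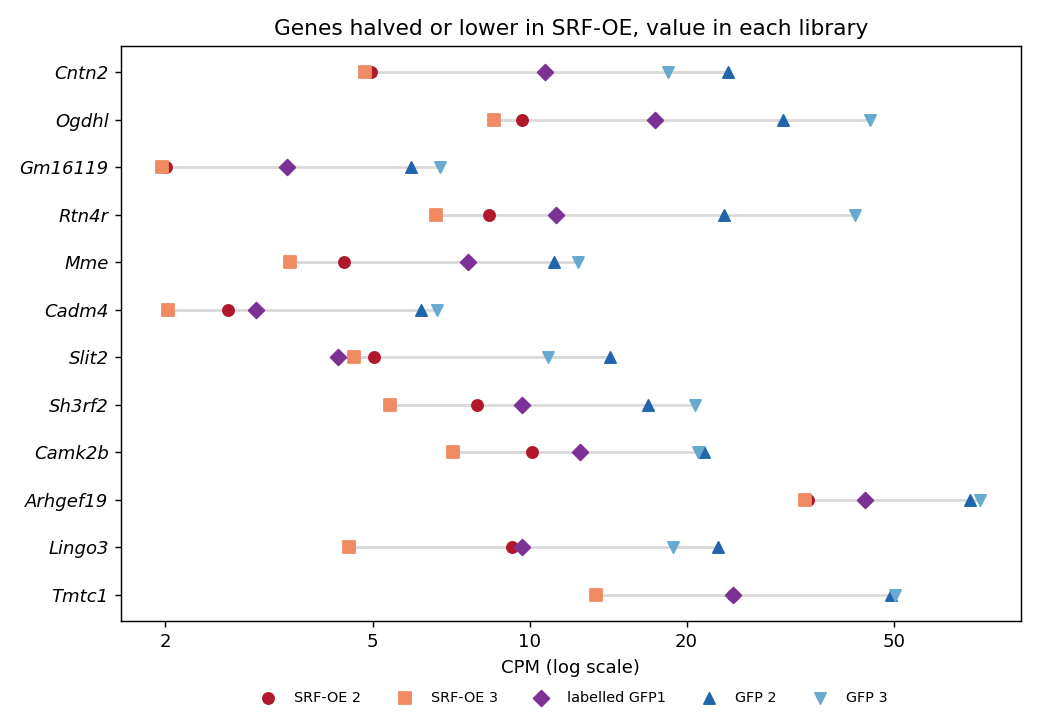
CPM of 12 of the 13 genes (1 to a line, ordered by ratio, lowest at the top) in each of the 5 libraries on a log axis. Squares and circles are SRF-OE, triangles GFP replicates 2 and 3, diamonds the library labelled GFP1, and the grey line spans a gene's range. The rule holds the SRF-OE marks well to the left of the triangles, and the diamond lies left of both triangles for every gene drawn.

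**Figure D2:**
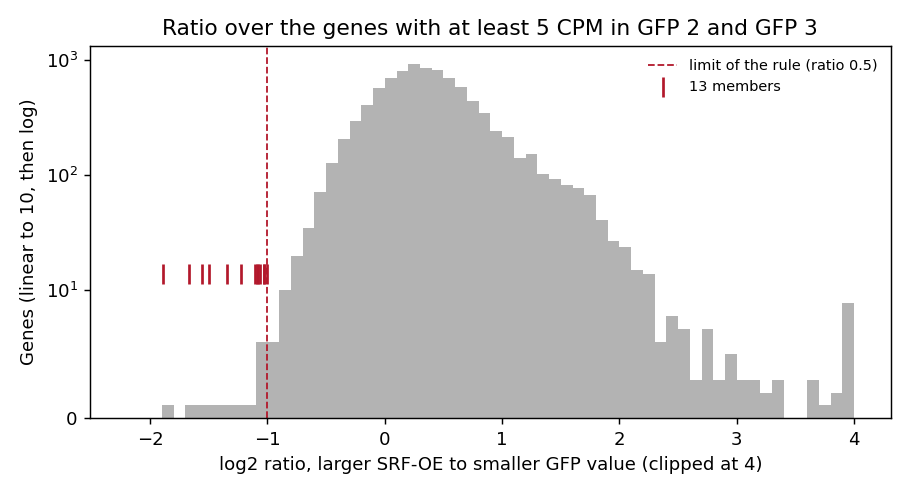
Distribution over 9327 genes of the log2 ratio of the larger SRF-OE to the smaller GFP value, with values above 4 drawn at 4 and a count axis that is linear up to 10 and logarithmic above. The 13 members, drawn as ticks, form the thin left tail beyond the dashed limit, while the bulk of genes lies to the right of 0 (median ratio 1.28).

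Among the surface proteins, Cntn2 had the lowest ratio of all, 0.270. Contactin-2 is a GPI-anchored adhesion protein of axons that also marks cells of the cardiac conduction system, the Purkinje network in particular. It had 4.96 and 4.84 CPM in SRF-OE replicates 2 and 3, 10.7 CPM in the library labelled GFP1, and 24.0 and 18.4 CPM in GFP replicates 2 and 3. The SRF-OE values were nearly equal and the GFP pair stood 4.32-fold above them in the mean (4.90 ± 0.09 against 21.2 ± 3.94 CPM, SD, n = 2 each). Its counts were 79 and 103 against 555 and 260, with 222 in the library labelled GFP1.

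Rtn4r and Lingo3 are leucine-rich repeat proteins of the cell surface. Rtn4r is the Nogo receptor, a receptor for inhibitors of axon growth, and Lingo3 belongs to the family of Lingo1, a co-receptor of it. Rtn4r had 8.35 and 6.62 CPM in SRF-OE, 11.2 CPM in the library labelled GFP1, and 23.6 and 42.2 CPM in GFP replicates 2 and 3, which is the widest gap of the 13 in the mean (4.39-fold). Its GFP libraries also differed the most from each other, 1.79-fold. Lingo3 had 9.23 and 4.51 CPM in SRF-OE, 9.67 CPM in the library labelled GFP1, and 22.97 and 18.8 CPM in the GFP pair. Here the SRF-OE libraries lay 2.05-fold apart, so that the higher of them decided its ratio of 0.491.

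Slit2 is a secreted guidance cue that acts through Robo receptors. It had 5.02 and 4.60 CPM in SRF-OE and 14.2 and 10.8 CPM in GFP replicates 2 and 3 (4.81 ± 0.30 against 12.5 ± 2.42 CPM, SD, n = 2 each). The library labelled GFP1 had 4.28 CPM of it, below both SRF-OE libraries, and no other member had its lowest value there. Cadm4, an immunoglobulin-type adhesion protein, was among the least abundant members, with 2.64 and 2.02 CPM in SRF-OE, 2.98 CPM in the library labelled GFP1 and 6.17 and 6.65 CPM in the GFP pair. Those SRF-OE values rest on 42 and 43 reads.

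Mme is neprilysin, a membrane metallopeptidase that cleaves small peptides, natriuretic peptides included. It had 4.39 and 3.47 CPM in SRF-OE, 7.60 CPM in the library labelled GFP1, and 11.1 and 12.4 CPM in the GFP pair, a 2.99-fold gap.

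Of the enzymes, Ogdhl had the second lowest ratio, 0.315. It is a relative of Ogdh, the first component of the 2-oxoglutarate dehydrogenase complex of the tricarboxylic acid cycle. It had 9.67 and 8.55 CPM in SRF-OE, 17.4 CPM in the library labelled GFP1, and 30.7 and 44.9 CPM in GFP replicates 2 and 3 (9.11 ± 0.79 against 37.8 ± 10.1 CPM, SD, n = 2 each). Camk2b, the beta subunit of calcium/calmodulin-dependent kinase II (CaMKII), had 10.1 and 7.14 CPM in SRF-OE, 12.5 CPM in the library labelled GFP1 and 21.6 and 21.1 CPM in the GFP pair. The GFP libraries were alike and stood 2.47-fold above SRF-OE in the mean. Tmtc1 is an enzyme of the endoplasmic reticulum that adds mannose to cadherins. Its values were 24.5 and 13.4 CPM in SRF-OE, 24.6 CPM in the library labelled GFP1 and 49.3 and 50.3 CPM in the GFP pair. With a ratio of 0.498 it is the member nearest to the limit, and SRF-OE replicate 2 and the library labelled GFP1 had practically the same level.

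Arhgef19, a guanine nucleotide exchange factor that activates small GTPases of the cytoskeleton, was the most abundant member by CPM. It had 34.2 and 33.7 CPM in SRF-OE, 43.9 CPM in the library labelled GFP1, and 69.9 and 73.0 CPM in GFP replicates 2 and 3. Both groups were tight (34.0 ± 0.36 against 71.5 ± 2.19 CPM, SD, n = 2 each), and its 2.10-fold gap was the smallest of the 13. Sh3rf2, a scaffold protein with a RING finger and SH3 domains, had 7.91 and 5.40 CPM in SRF-OE, 9.67 CPM in the library labelled GFP1 and 16.8 and 20.7 CPM in the GFP pair.

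Gm16119, named Uckl1os in RefSeq, is a long non-coding RNA that lies opposite to Uckl1. It had 2.01 and 1.97 CPM in SRF-OE, 3.42 CPM in the library labelled GFP1 and 5.92 and 6.72 CPM in GFP replicates 2 and 3, on as few as 32 reads. Zfp512b, also on the opposite strand, overlaps it in the annotation too. The strand setting of the counting is not given in the sources used here. Reads in any stretch that Gm16119 shares with these genes therefore cannot be assigned with certainty. Uckl1 itself had 72.9 and 64.0 CPM in SRF-OE, 67.02 CPM in the library labelled GFP1 and 78.3 and 79.7 CPM in the GFP pair, a ratio of 0.931.

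Per length of the gene, the order of the members changed. RPKM values (CPM divided by the gene length in the table, in kilobases) in the mean of GFP replicates 2 and 3 were highest for Arhgef19, 21.03, and Rtn4r, 17.5, followed by Ogdhl, 10.96. Tmtc1 and Cntn2, whose lengths in the table are 8346 and 9535 bp, came to 5.96 and 2.22. Slit2 was the lowest, at 1.57. The median length of the members was 4166 bp, against 3003 bp for all genes that could enter.

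At the limit of the rule the values ran on without a break. Just inside lay Tmtc1 (0.498), Lingo3 (0.491) and Arhgef19 (0.489). Just outside lay Intu, a planar cell polarity gene of cilia, at 0.504, with 21.7 and 14.8 CPM in SRF-OE and 43.1 and 53.9 CPM in GFP replicates 2 and 3. Next came Dapk1, a calmodulin-regulated kinase, at 0.513 (39.4 and 19.7 against 76.9 and 79.8 CPM), and Clcn1, a muscle chloride channel, at 0.519 (2.83 and 1.46 against 5.44 and 5.73 CPM). Acta2, smooth muscle alpha-actin, had 576 and 399 against 958 and 1311 CPM, and Hcn4, the pacemaker channel, 4.83 and 2.44 against 8.68 and 9.97 CPM. The library labelled GFP1 had 25.1 CPM of Intu, 34.7 of Dapk1, 1.40 of Clcn1, 468 of Acta2 and 6.98 of Hcn4. It lay between the SRF-OE libraries for Dapk1 and Acta2, below both for Clcn1, and between the groups for Intu and Hcn4.

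The library labelled GFP1 was not used by the rule, so its values were not fixed by it. They were not free of the selection either. The rule favours genes with high values in the other GFP libraries, so a further library can tend to lie below these whatever its group. The counts of members that follow therefore cannot place this library, and nothing is read from them. The library labelled GFP1 lay below both other GFP libraries for 13 of 13 members, as it did for 28.9% of the 9327 genes. For 5 members, Rtn4r, Cadm4, Slit2 and Tmtc1 among them, it was at most 0.5 times the smaller GFP value, against 0.343% of the 9327 genes. Those shares are over all genes that could enter, whatever their difference between the groups. A closer background are the 1770 genes (19.0% of 9327) with both SRF-OE values under both GFP values, a condition that the rule fixes for the members. The shares above were not counted over these genes, so those counts of members have no matched share here.

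Its place was measured on the log2(CPM + 1) scale, with 0 at the mean of GFP replicates 2 and 3 and 1 at the mean of the SRF-OE libraries. The median position over the members was 0.656, from 0.412 for Mme to 1.11 for Slit2. It was nearer to SRF-OE than to GFP for 11 of 13 members, all but Mme and Cntn2, and for 69.3% of the 1770 genes, whose median position was 0.696. The members' median thus lay a little nearer to GFP than that of these genes, a difference that was not tested. Srf itself, on the same scale, gave 0.762. The label was not changed for any value here.

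**Figure D3:**
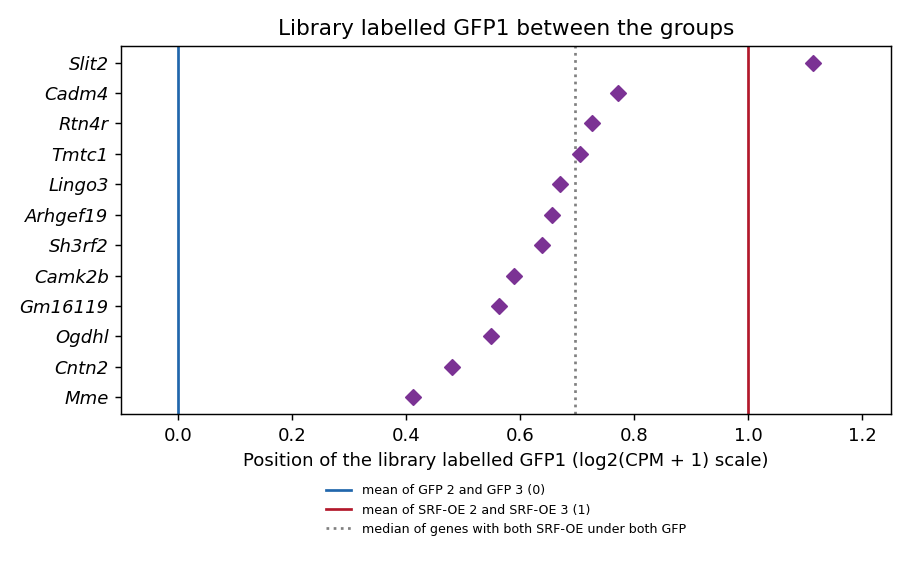
Position of the library labelled GFP1 for 12 of the 13 members, where 0 (blue line) is the mean of GFP replicates 2 and 3 and 1 (red line) the mean of SRF-OE replicates 2 and 3 on the log2(CPM + 1) scale. The diamonds run from 0.412 for Mme to 1.11 for Slit2, and the dotted line marks 0.696, the median of the 1770 genes with both SRF-OE values under both GFP values.

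The SRF-OE libraries were also unequal. SRF-OE replicate 3, which had more Srf RNA than replicate 2, had the lower value for 13 of 13 members, against 47.3% of the 9327 genes and 73.6% of the 1770. The fold between them had a median of 1.26 and reached 2.05 for Lingo3 and 1.83 for Tmtc1, while Arhgef19, Gm16119 and Cntn2 were within 1.03. Replicates 2 and 3 differ in sex as well as in Srf, and the part of either was not tested. The full order, SRF-OE replicate 3 lowest, then SRF-OE replicate 2, then the library labelled GFP1, then both GFP libraries, held for 11 of 13 members, Slit2 not among them, against 25.3% of the 1770 genes. Those members were selected on their gap, and no test was made of this difference.

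Fitted across all genes with edgeR's quasi-likelihood test and the 5 libraries as labelled, an adjusted p under 0.05 was reached by 0 of 13754 genes (0%) that were lower and by 0 that were higher. Before adjustment 1044 lower and 873 higher genes had p under 0.05, and DESeq2 called 213 lower and 11 higher among the 1167 genes to which its filtering left an adjusted p. None of the 13 members was given an adjusted p by DESeq2. The fitted log2 fold changes of all 13 members were negative, with a median of -1.48, against 0.03 over all genes. They ranged from -2.05 (SE 0.39) for Cntn2 to -1.08 (SE 0.27) for Arhgef19. Without the library labelled GFP1, 130 of 13397 genes (0.97%) were called lower and 265 higher, among the lower 11 of the 13 members, Lingo3 not among them. A block for the replicate number gave 432 lower (3.14%) and 582 higher genes, all 13 members among the lower. Since number 1 has counts for GFP1 alone, its block takes up that library, and this fit too compares the other 4 libraries. In those 4 libraries the number coincides with sex. The fits use the libraries that chose the members, so nothing is read from these counts.

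The members were set beside their closest relatives, 10 families with 73 genes in the table, chosen once the members were known. Of the relatives that are not members, 30 had at least 5 CPM in both GFP libraries. Not being members, they missed the limit, so gaps smaller than those of the members were largely fixed by the rule. With the 5 libraries as labelled, 0 of the 30 passed edgeR's test in either direction. Of the 30, 16 had a negative log2 fold change, and the median was -0.03. Without the library labelled GFP1, Arhgef2 was higher (log2 fold change 0.84, SE 0.14, adjusted p = 0.048 from edgeR) and 0 were lower. It had 55.9 and 60.1 CPM in SRF-OE, 49.0 CPM in the library labelled GFP1, and 29.5 and 25.9 CPM in GFP replicates 2 and 3, and it encodes a microtubule-bound exchange factor of the same family as Arhgef19. With the replicate block, which rests on the same 4 libraries, 0 were called lower and 3 higher (Rtn4, Arhgef2 and Arhgef25). Over all genes, 130 of 13397 were lower and 265 higher without the library labelled GFP1, and 432 of 13754 lower and 582 higher with the block. At those shares few calls would be found among 30 genes, so nothing is read from the calls of the relatives.

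Rtn4, the ligand of the Nogo receptor and a shaper of the endoplasmic reticulum, had the opposite order to Rtn4r. It had 172 and 393 CPM in SRF-OE, 234 CPM in the library labelled GFP1, and 67.1 and 50.7 CPM in GFP replicates 2 and 3, with no overlap between the SRF-OE libraries and that GFP pair. The rule in the other direction was met by 372 of 9880 genes (3.77%), and genes merely separated in that direction were not counted. Rtn4 was picked after its values were seen, and nothing is read from its order. Its log2 fold change was 1.13 (SE 0.64, adjusted p = 0.437 from edgeR) with 5 libraries, 2.04 (SE 0.39, adjusted p = 0.0532) without the library labelled GFP1, and 1.92 (adjusted p = 0.0312) with the block. Rtn4rl1, a related receptor, had 33.0 and 24.0 CPM in SRF-OE and 37.3 and 23.1 CPM in the GFP pair, and the groups overlapped. Lingo1, Lingo2 and Lingo4 were all under 3 CPM in every library.

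The other subunits of CaMKII had smaller gaps than Camk2b, or none in its direction. Camk2d, the main cardiac subunit, had 359 and 320 CPM in SRF-OE and 427 and 396 CPM in GFP replicates 2 and 3. Camk2a had 23.6 and 12.5 against 25.0 and 23.8 CPM, and Camk2g 25.3 and 28.7 against 22.8 and 23.8 CPM. Per length, the level of Camk2d in the GFP pair was 92.3 RPKM and that of Camk2b 5.12 RPKM, so Camk2b is a minor subunit of the kinase RNA in these cells.

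Ogdh, Dlst and Dld encode the complex to which Ogdhl is related, and all lay lower in both SRF-OE libraries than in GFP replicates 2 and 3. That separation held for 19% of the 9327 genes with at least 5 CPM in both, and for 9 of the 30 relatives, these included. Ogdh had 2853 and 2816 CPM in SRF-OE, 3309 CPM in the library labelled GFP1 and 3947 and 4356 CPM in GFP replicates 2 and 3, with a log2 fold change of -0.65 (SE 0.24, adjusted p = 0.357 from edgeR). For Ogdhl the fitted value was -1.98 (SE 0.44). Per length, Ogdh reached 594 RPKM in the GFP pair and Ogdhl 10.96 RPKM.

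Among the remaining families, Slit3 had 10.5 and 4.65 CPM in SRF-OE and 7.17 and 5.66 CPM in GFP replicates 2 and 3, and Robo4, the Robo receptor of endothelial cells, 45.1 and 18.3 against 18.7 and 15.3 CPM. Neither group of values was separated in the direction of Slit2. Ece1 and Ece2, peptidases related to Mme, had ratios above 1. Tmtc4 had 11.2 and 8.03 against 14.1 and 14.4 CPM and Tmtc3 22.9 and 26.2 against 26.3 and 20.7 CPM. The other contactins and the other Cadm genes were under 3 CPM in every library.

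**Figure D4:**
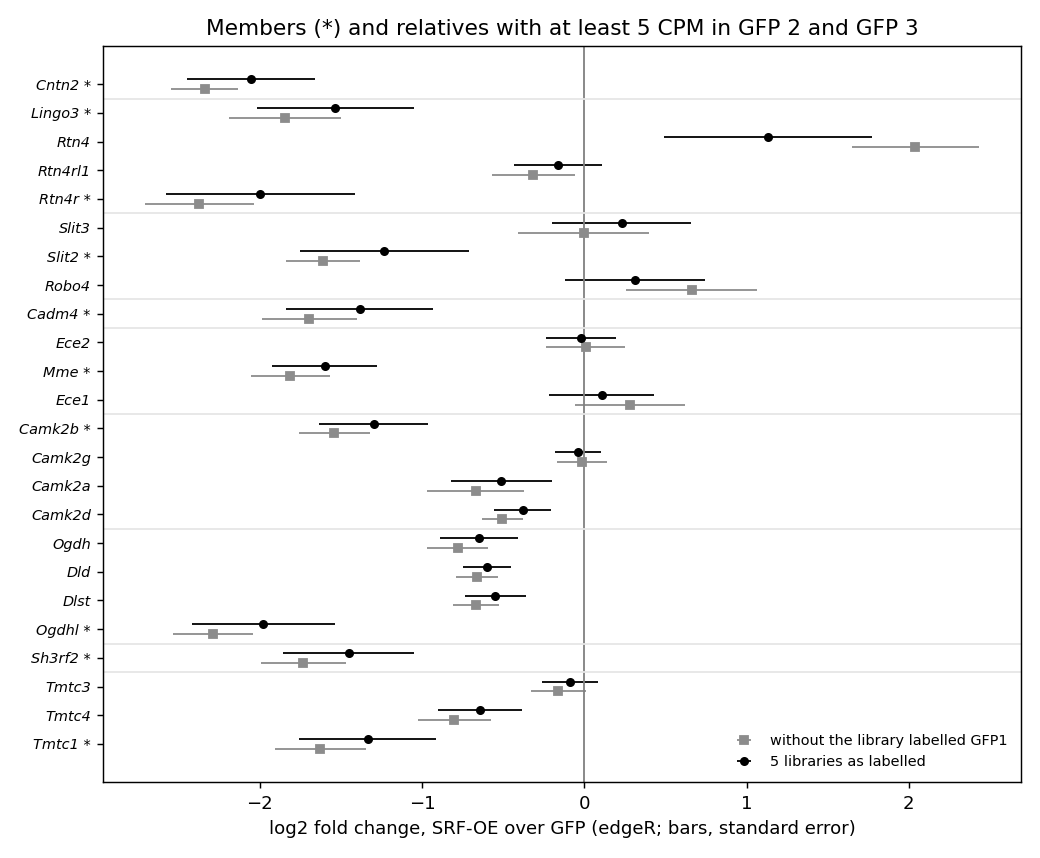
edgeR log2 fold changes of SRF-OE over GFP for members (marked with an asterisk) and relatives with at least 5 CPM in both GFP libraries, grouped by family (grey lines part the families; the Arhgef family and Gm16119 are not drawn). Circles are the 5 libraries as labelled, squares the fit without the library labelled GFP1, and bars the standard error. The members lie at the left, most relatives near 0, and Rtn4 at the right with 1.13 and 2.04. The rule chose the members for low SRF-OE values and the relatives drawn missed its limit, so this split was largely fixed in advance.

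Beyond the families, 26 lists of genes for roles in CMs and for other cell types, 575 genes of which 414 had at least 5 CPM in both GFP libraries, held 0 of the 13 members, and 0 of the listed genes met the rule, beside 0.139% of all genes that could enter. At that share so few listed genes would be found that nothing is read from the 0. The lowest ratios among the 414 were those of Clcn1 of the channel list (0.519), Fbln1, an extracellular matrix protein (0.583), and Unc45b, a myosin chaperone (0.599). Of the 16 lists for roles in CMs, 7 had a summed level that was lower in both SRF-OE libraries than in GFP replicates 2 and 3. Single genes were separated that way for 19% of the 9327, which is no matched background for sums. A sum weighs its most abundant genes most and rests on CPM by column sum, so nothing is read from this count.

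Markers of other cells were read in the same libraries. Of 9 lists for other cell types, 0 had a summed level lower in both SRF-OE libraries than in GFP replicates 2 and 3. That count has no matched background either, and nothing is read from it. The lists share genes. Des and Abcc9 of the smooth muscle and pericyte list also stand on lists for roles in CMs, and Fabp4 on the endothelial and adipocyte lists. A sum is thus not specific to the cell type that names its list. Summed fibroblast markers were 1544 and 940 CPM in SRF-OE, 870 CPM in the library labelled GFP1, and 614 and 549 CPM in the GFP pair. The epicardial list had 138 and 493 CPM in SRF-OE and 12.997 and 11.1 CPM in the GFP pair, and the smooth muscle and pericyte list 3739 and 6139 against 2885 and 3249 CPM. Endothelial markers overlapped between the groups (3174 and 1728 against 2220 and 1946 CPM). Neural and Schwann cell markers, which bear on the members best known from neurons, summed to 123 and 118 CPM in SRF-OE, 88.2 CPM in the library labelled GFP1 and 103 and 82.1 CPM in the GFP pair. Leukocyte markers were low but higher in SRF-OE, 65.9 and 30.5 CPM against 21.98 and 17.6 CPM, and adipocyte markers were 348 and 198 against 167 and 122 CPM. Atrial genes summed to 3330 and 3537 CPM in SRF-OE, 1638 CPM in the library labelled GFP1 and 2125 and 598 CPM in the GFP pair. The list of CM identity genes was lower in SRF-OE, 105259 and 96171 against 118741 and 130288 CPM in GFP replicates 2 and 3. The library labelled GFP1 had 102488 CPM on that list and 365 CPM on the adipocyte list. It had 194 CPM on the epicardial, 5165 on the smooth muscle and pericyte, 2760 on the endothelial and 46.5 on the leukocyte list. For adipocyte markers it lay above both SRF-OE libraries, and for the rest of these lists between them. The part of any of these levels in the lower values of the members was not tested.

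In the GRCm38 annotation (GENCODE M21, with RefSeq for Gm16119), the 12 genes described lie on 12 chromosomes, and all but Gm16119 are protein coding. Cntn2 is on chromosome 1 (132509427 to 132543256, minus strand), Gm16119 on 2 (181578480 to 181585115, plus), Mme on 3 (63241537 to 63386030, plus), Arhgef19 on 4 (141239499 to 141257564, plus) and Slit2 on 5 (47983138 to 48307733, plus). Tmtc1 is on chromosome 6 (148232430 to 148444389, minus), Cadm4 on 7 (24482023 to 24504539, plus), Camk2b on 11 (5969644 to 6066362, minus), Ogdhl on 14 (32322019 to 32348151, plus), Rtn4r on 16 (18127642 to 18152408, plus), Lingo3 on 10 (80832801 to 80844039, minus) and Sh3rf2 on 18 (42053667 to 42158960, plus). Other annotated genes overlap Slit2, Tmtc1 and Gm16119, among them the miRNA gene Mir218-1 inside Slit2, so that reads of these members may be shared with them.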

How the data were processed

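RNA-seq of FACS-purified GFP+ CMs was analysed in 5 libraries, 2 of SRF-OE and 3 of GFP, grouped by their titles. STAR 2.5.3a against mm10 and featureCounts of Subread 1.5.2 were the authors' tools for mapping and counting, per the labels. The deposited values are raw counts with no normalization. The annotation and the strand and multi-mapping settings are not given in the sources used here. The column named for SRF-OE replicate 1 holds gene lengths and was used only for RPKM, and 0 columns of values were left unused.

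CPM was each count over its column sum. The 13 genes were selected on the CPM of 4 libraries, as the opening of the results states. The members, the 26 gene lists and the 10 families were chosen with earlier results of these data known. 1 member is not reported here on its own, and its values stand in counts and medians alone. The other members could all be named, and full values are given for the 12 with the lowest ratio and the 12 most abundant, those 3 just inside and outside the limit, and those at the ends of the GFP1 order. Other genes were chosen after their values were seen.

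Across all genes, edgeR 4.0.16 in R 4.3.3 was run with filterByExpr, TMM factors, glmQLFit and glmQLFTest, with Benjamini-Hochberg adjustment at 0.05. The standard error is the log2 fold change divided by the square root of F. Alternatives were DESeq2 1.42.0, its size factors, no filter on low counts, the replicate number as a block, each library left out, and other scalings, floors and ratios in the rule. The scripts were tested on simulated data. Promoter windows are from RefSeq, GRCm38.p6, and were matched for 11 members. Total counts were 15927653 and 21298558 in SRF-OE and 20785271, 23159631 and 14137433 in GFP. With 32 to 1619 reads behind a member's value, counting error is widest for Gm16119 and Cadm4.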

Additional observations from a re-analysis of the deposited data

How the results depend on the processing

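The number of genes meeting the rule depended on its settings, and the cause was not tested. It was 13 with CPM by column sum, 39 with TMM factors, 42 with DESeq2's size factors, 26 with a floor of 1 CPM and 91 with a ratio of at most 2 to 3. It was 2 with a ratio of at most 1 to 3 (Cntn2 and Ogdhl), 1 with the library labelled GFP1 added to the GFP libraries (Cntn2), and from 14 to 210 with a library left out, the most without SRF-OE replicate 2, then 34 without GFP replicate 2 and 21 without GFP replicate 3. A floor of 10 CPM lost Gm16119 and Cadm4. The reverse rule, whose scalings were added after the data were seen, gave 372, 229 and 222 genes with CPM by column sum, TMM factors and DESeq2's factors. The number of genes at most 0.5 times the smaller GFP value in the library labelled GFP1 was 5, and 18, 19, 13, 19 and 0 under TMM factors, DESeq2's factors, the floor of 1 CPM and the looser and stricter ratios, and 5 to 28 with a library left out. The median position of that library was 0.656, 0.751 on linear CPM, and 0.545 (without SRF-OE replicate 2) to 0.773 (without SRF-OE replicate 3).

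Over all genes edgeR called 0 lower and 0 higher with 5 libraries, DESeq2 213 and 11. Leaving out a library gave 0 to 130 lower and 0 to 265 higher, and only leaving out the library labelled GFP1 gave any. The replicate block gave 432 lower and 582 higher. The replicate numbers were not taken as pairs. Deviations of same-numbered libraries correlated at 0.372 for number 2 and -0.06 for number 3 across genes, which are not independent. These deviations are from group means, with the library labelled GFP1 in the GFP mean, and those of the SRF-OE libraries mirror each other. They therefore cannot decide on pairing. Number 2 was female and number 3 male in both groups, so a block for number is also one for sex. The block takes up the library labelled GFP1, alone with its number, so it rests on the same 4 libraries as leaving that library out. With 2 libraries in SRF-OE, and 32 to 43 reads behind the lowest values of Gm16119 and Cadm4, depth and replicate number limit what can be said of single members.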
